A study of Homo sapiens with 4 samples.

Results

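The genes described here are 9 cyclins and the phosphatase CDC25A, 10 genes in all. They were taken by symbol from a table of 38972 genes, and all 10 were found. They are the D cyclins CCND1, CCND2 and CCND3, the E cyclins CCNE1 and CCNE2, the A cyclin CCNA2, the B cyclins CCNB1 and CCNB2, cyclin F (CCNF), and CDC25A. Expression was profiled by RNA sequencing of HEK293T cells in 4 libraries, 2 labelled oeRNH1 (by the labels, cells overexpressing RNase H1, a nuclease that cuts RNA paired with DNA) and 2 labelled oeFlag (cells overexpressing the Flag epitope tag). HEK293T is a human embryonic kidney line that carries adenoviral E1A and the SV40 large T antigen, viral proteins that bind the RB family of cell cycle inhibitors, and both groups share this background. The design holds 1 comparison, the libraries labelled oeRNH1 against those labelled oeFlag. The labels do not say that replicates came from separate cultures, so p-values measure only the spread between these libraries, which may be technical.

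Cyclins are the regulatory subunits of the cyclin-dependent kinases (CDKs), and their turns of synthesis and destruction order the cell cycle. D cyclins act with CDK4 and CDK6 in G1, E cyclins with CDK2 at the G1/S boundary, cyclin A2 with CDK2 and CDK1 in S and G2, and B cyclins with CDK1 in mitosis. Cyclin F differs in that it does not activate a kinase but selects substrates for an SCF ubiquitin ligase. CDC25A removes inhibitory phosphates from CDKs and so promotes entry into S phase and mitosis. In a culture of dividing cells the level of each transcript also depends on how many cells are in each phase, and in bulk RNA fewer cells with a transcript and less of it per cell cannot be told apart.

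Promoters were read from RefSeq (GRCh38.p14), and those of 6 of the 10 genes were used, 8 promoters in all. Stretches are shown from CDC25A, which rose in the libraries labelled oeRNH1, and from CCNA2, CCNB2 and CCNF, which did not pass the test. CCND3 and CCNE1, whose promoters were also used, did not pass either and are not shown. The 3 cyclins shown were those of the 6 genes with a cell cycle homology region motif, described below. In the 120 bases before the CDC25A start (chr3:48188418-48188537, minus strand), capitals mark an E2F motif and 2 CCAAT boxes read on the opposite strand (ATTGG). In the 30-base windows of CCNA2 (chr4:121823884-121823913, minus strand), CCNB2 (chr15:59105116-59105145, plus strand) and CCNF (chr16:2429341-2429370, plus strand), capitals mark CCAAT boxes or cell cycle homology region (CHR) motifs, elements known from promoters of mitotic genes. Each 30-base window was the one that held most motifs, nearest to the start where several held as many. The CCNA2 and CCNB2 windows hold a CHR motif alone. Their nearest CCAAT boxes begin at -56 and -54 from the start, outside these windows. The CDC25A stretch is longer, so the printed stretches cannot be compared for the motifs they hold.
CDC25A: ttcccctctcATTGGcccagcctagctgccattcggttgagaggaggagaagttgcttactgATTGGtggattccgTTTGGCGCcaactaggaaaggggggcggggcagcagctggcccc
CCNA2: taCTTGAActgcaagaacagccgccgctcc
CCNB2: aTTTGAAtcctggaacaaggctacagcgtc
CCNF: CCAATgggagggccgggtgcgTTTGAAaac

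Motifs were searched on both strands of the 250 bases before the start of 35116 RefSeq promoters, and no motif contains another. The E2F motif (TTTGGCGC, TTTCGCGC, TTTCCCGC or TTTGCCGC) was found in 2.79% of all promoters and, among the 6 genes used, once in CDC25A. Promoters of the other 4 genes were not used here, so no motif result is given for CCNE2, the other gene that rose. The CCAAT box was found in 32% of all promoters, with 4 copies in CCNB2, 4 in CCNF, 2 in CDC25A, 1 in CCNA2 and 1 in each of 2 of the 3 CCND3 promoters. The CHR motif (TTTGAA or CTTGAA) was found in 20.9% of all promoters, with 2 copies in CCNA2, 1 in CCNB2 and 1 in CCNF. The CCNE1 promoter held none of these letters. A match is a description of sequence and not a measured binding site. The lack of a match covers only these exact letters in the 250 bases before the start, and other forms of a motif were not searched.

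Values are TPM, a measure of transcript abundance scaled for gene length and to a common total in each library, so levels of different genes can be set side by side within a library. TPM keeps no sequencing depth, which is therefore unknown here. All 10 genes were well above the minimum of 1 mean TPM used for testing, with values from 20.22 to 278.02 TPM. RNASEH1 itself was at 29.93 and 29.67 TPM in the libraries labelled oeRNH1, against 32.09 and 32.8 TPM in those labelled oeFlag (log2 fold change -0.12 ± 0.06, SE, limma adjusted p = 0.260). Its level thus does not bear out the label, and every direction given here is that of the libraries labelled oeRNH1 relative to those labelled oeFlag. All 8 genes listed as markers of the embryonic kidney line were tested, 1 higher (VIM), 2 lower (NEFL and NEFM) and 5 not called, with a summed level of 1093 to 1110 TPM in the libraries labelled oeRNH1 and 1026 to 1046 TPM in those labelled oeFlag. PAX2 was low among them, at 1.29 to 1.86 TPM over all 4 libraries. Of the 17 markers listed for carcinoma epithelium, blood, fibroblasts and hepatocytes, KRT7 and HBB were at 0 in every library, and none of the tested ones was called.

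CCNE2 and CDC25A, both of the passage into S phase, rose in the libraries labelled oeRNH1, and the other 8 genes did not pass the test. Tests used limma on log2(TPM + 1) over 15651 genes, with p-values adjusted over all of them by the Benjamini-Hochberg method and a call at an adjusted p under 0.05. Of all tested genes 6.3% were called higher and 5.54% lower. Of the 10 genes 2 were called higher, 0 lower and 8 were not called, and 4 had an unadjusted p under 0.05. The median log2 fold change was 0.11 over the 10 genes and 0.0035 over all tested genes. The groups did not overlap for 9 of the 10 genes, 6 higher and 3 lower, where they did not overlap for 60.7% of all tested genes. With 2 libraries against 2, an exact permutation test of a single gene cannot give a two-sided p below 0.333, so the limma fit across all genes is the only test given.

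**Figure D1:**
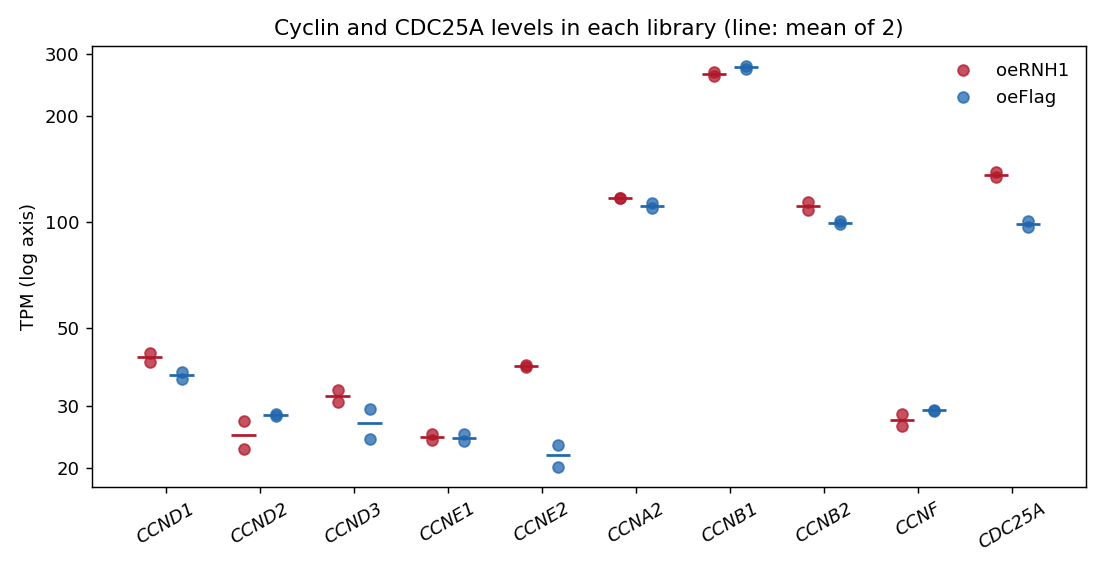
TPM of each gene (log axis) in the 2 libraries labelled oeRNH1 (red) and the 2 labelled oeFlag (blue), with lines at the group means. CCNE2 at 38.84 and 39.33 TPM and CDC25A at 134.36 and 138.65 TPM in the libraries labelled oeRNH1 stand clear of those labelled oeFlag, while CCNE1 overlaps.

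The D cyclins, which link growth signals to CDK4 and CDK6, moved in different directions by small amounts, and none was called. CCND1 (chromosome 11, 69641087 to 69654474) was at 40.22 and 42.48 TPM in the libraries labelled oeRNH1, against 37.68 and 35.98 TPM in those labelled oeFlag. Both libraries labelled oeRNH1 were above both labelled oeFlag, and the log2 fold change of 0.16 ± 0.07 (SE) missed the threshold (limma adjusted p = 0.153). CCND2 (chromosome 12, 4273772 to 4305350) was at 27.2 and 22.67 TPM in the libraries labelled oeRNH1, against 28.49 and 28.13 TPM in those labelled oeFlag. The groups did not overlap, but most of the difference came from oeRNH1 replicate 2. Its log2 fold change was -0.18 ± 0.10 (SE, limma adjusted p = 0.264), and without that replicate it was -0.06. CCND3 (chromosome 6, 41934933 to 42050357) was at 30.88 and 33.33 TPM in the libraries labelled oeRNH1, against 24.3 and 29.5 TPM in those labelled oeFlag. The lower oeFlag library, replicate 1, lay well below the other 3 libraries, and the log2 fold change of 0.25 ± 0.10 (SE) did not pass (limma adjusted p = 0.164). Without oeFlag replicate 1 it was 0.12.

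Summed over the 3 genes, D cyclin transcripts came to 98.3 and 98.5 TPM in the libraries labelled oeRNH1 and to 90.5 and 93.6 TPM in those labelled oeFlag. CCND2 made up 27.7% and 23.0% of that sum in the libraries labelled oeRNH1 and 31.5% and 30.1% in those labelled oeFlag, with no overlap. The shares of CCND1 and CCND3 overlapped between the groups, at 40.9% and 43.1% against 41.7% and 38.4% for CCND1 and at 31.4% and 33.8% against 26.9% and 31.5% for CCND3 (libraries labelled oeRNH1 against oeFlag). HEK293T cells in both groups thus held transcripts of all 3 D cyclins at comparable levels, with CCND1 the most abundant in each library. Exons of CCND1 share 497 bases with LTO1 on the opposite strand. Whether reads were assigned by strand is not given, so reads there may be assigned to either gene. Exons of CCND2 share 989 bases with the gene AC008012.1 on the same strand. No value was listed for AC008012.1, and how reads there were assigned is not known.

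The E cyclins, the partners of CDK2 at the G1/S boundary, differed from each other. CCNE2 (chromosome 8, 94879770 to 94896678) was at 39.33 and 38.84 TPM in the libraries labelled oeRNH1 (39.1 ± 0.347, SD, n = 2), against 23.37 and 20.22 TPM in those labelled oeFlag (21.8 ± 2.23, SD, n = 2). Both libraries labelled oeRNH1 were far above both labelled oeFlag, and the ratio of the group means was 1.79. The log2 fold change was 0.82 ± 0.09 (SE) with a 95% interval from 0.61 to 1.03 (limma adjusted p = 0.00990). CCNE1 (chromosome 19, 29811898 to 29824308) was at 24 and 25 TPM in the libraries labelled oeRNH1, against 23.85 and 24.97 TPM in those labelled oeFlag. The groups overlapped and their means lay within the spread of either (log2 fold change 0.01 ± 0.07, SE, limma adjusted p = 0.969). The 95% interval of the CCNE1 change ran from -0.17 to 0.18, a ratio of 0.889 to 1.13 on the scale of TPM + 1.

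The more abundant E cyclin was not the same in the 2 groups. The CCNE2 to CCNE1 ratio was 1.64 and 1.55 in the libraries labelled oeRNH1, against 0.980 and 0.810 in those labelled oeFlag. CCNE2 was the less abundant E cyclin in both libraries labelled oeFlag and the more abundant one in both labelled oeRNH1. Total E cyclin transcript was 63.3 and 63.8 TPM in the libraries labelled oeRNH1 and 47.2 and 45.2 TPM in those labelled oeFlag, a ratio of means of 1.38. To the difference between these sums CCNE1 contributed almost nothing, with means of 24.5 TPM (oeRNH1) and 24.41 TPM (oeFlag). Exons of CCNE2 share 1629 bases with exons of INTS8, an Integrator subunit gene on the opposite strand (GENCODE release 29), and whether reads were assigned by strand is not given in the sources used here. INTS8 was at 69.02 and 71.55 TPM in the libraries labelled oeRNH1, against 73.36 and 81.59 TPM in those labelled oeFlag. INTS8 was thus lower where CCNE2 was higher, without being called (log2 fold change -0.14 ± 0.07, SE, limma adjusted p = 0.226). The longest CCNE2 transcript has a GC content of 36.9%, the lowest of the 10 genes, and after GC correction the log2 fold change was 0.74 with the call kept (limma adjusted p = 0.0127).

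**Figure D2:**
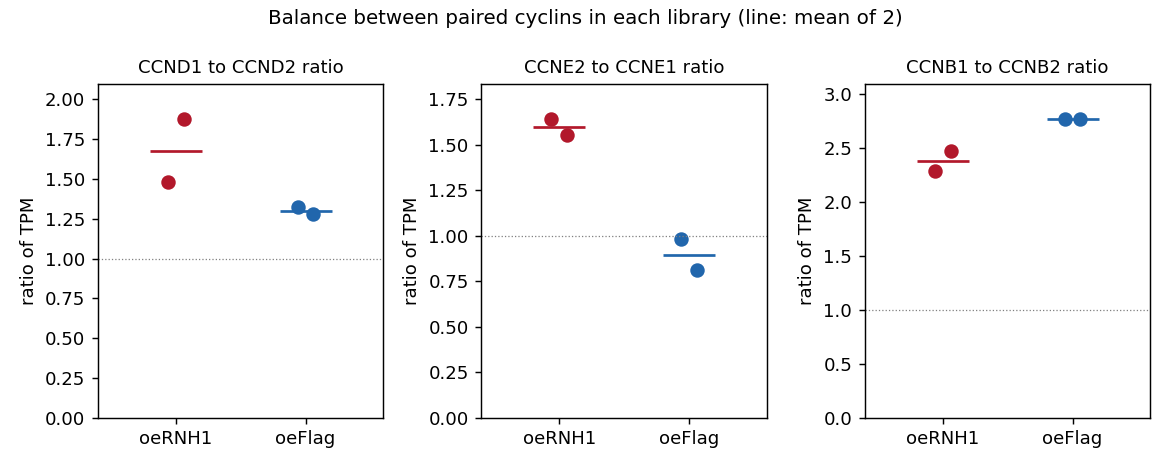
Ratio of TPM between paired cyclins in each library labelled oeRNH1 (red) and oeFlag (blue), with lines at the means and a dotted line at a ratio of 1. CCNE2 to CCNE1 lies above 1 in both libraries labelled oeRNH1 (1.64 and 1.55) and below it in both labelled oeFlag (0.980 and 0.810).

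Cyclin A2, which serves S phase and G2, was slightly higher without being called. CCNA2 (chromosome 4, 121816444 to 121823933) was at 117.6 and 116.87 TPM in the libraries labelled oeRNH1, against 109.68 and 113.12 TPM in those labelled oeFlag. The groups did not overlap, with a log2 fold change of 0.07 ± 0.05 (SE, limma adjusted p = 0.333) and a 95% interval from -0.04 to 0.19. After GC correction the log2 fold change of CCNA2 was 0.02 (limma adjusted p = 0.808). CCNA2 exons share 254 bases with EXOSC9, an exosome subunit gene on the opposite strand, which rose (109.91 and 113.1 TPM in the libraries labelled oeRNH1, 89.21 and 97.44 TPM in those labelled oeFlag, limma adjusted p = 0.0459). The part of shared reads in the CCNA2 value was not tested.

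The B cyclins, which drive mitosis with CDK1, lay on opposite sides of 0, and neither was called. CCNB1 (chromosome 5, 69167010 to 69178245), the most abundant of the 10 genes in every library, was at 260.31 and 266.97 TPM in the libraries labelled oeRNH1, against 273.15 and 278.02 TPM in those labelled oeFlag. The libraries labelled oeRNH1 were both lower, by a log2 fold change of -0.06 ± 0.04 (SE, limma adjusted p = 0.323). CCNB2 (chromosome 15, 59105078 to 59125045) was at 114.19 and 108.27 TPM in the libraries labelled oeRNH1, against 98.92 and 100.71 TPM in those labelled oeFlag. The libraries labelled oeRNH1 were both higher, and CCNB2 came nearest to the threshold among the genes not called (log2 fold change 0.15 ± 0.05, SE, limma adjusted p = 0.0998). The CCNB1 to CCNB2 ratio was 2.28 and 2.47 in the libraries labelled oeRNH1, against 2.76 in each labelled oeFlag. The sum of both B cyclins overlapped between groups, at 374.5 and 375.2 TPM in the libraries labelled oeRNH1 and 372.1 and 378.7 TPM in those labelled oeFlag.

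Set against that sum, the E cyclins came to 0.169 and 0.170 of the B cyclin level in the libraries labelled oeRNH1 and to 0.127 and 0.119 in those labelled oeFlag. Cyclin F, whose known substrates include the ribonucleotide reductase subunit RRM2, was not called. CCNF (chromosome 16, 2429394 to 2458854) was at 28.6 and 26.34 TPM in the libraries labelled oeRNH1, against 29.39 and 29.16 TPM in those labelled oeFlag. The groups lay side by side without overlap, with a log2 fold change of -0.09 ± 0.07 (SE, limma adjusted p = 0.447). Its exons share 219 and 527 bases with 2 noncoding genes on the opposite strand, which were listed at no more than 3.33 TPM in any library.

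CDC25A, the phosphatase that removes inhibitory phosphates from CDK2 and CDK1, rose. CDC25A (chromosome 3, 48157146 to 48188402, minus strand) was at 138.65 and 134.36 TPM in the libraries labelled oeRNH1 (136.5 ± 3.03, SD, n = 2), against 97.25 and 100.88 TPM in those labelled oeFlag (99.1 ± 2.57, SD, n = 2). The groups were far apart compared with the gap within either, and the ratio of the means was 1.38. The log2 fold change was 0.46 ± 0.05 (SE) with a 95% interval from 0.34 to 0.58 (limma adjusted p = 0.00990). Its exons share no bases with another gene in GENCODE release 29. The E2F motif and the 2 CCAAT boxes printed above lie within 120 bases of its RefSeq start, which differs from the gene end given here.

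The sister phosphatases did not pass the test. CDC25B was at 40.16 and 39.83 TPM in the libraries labelled oeRNH1, against 43.84 and 45.92 TPM in those labelled oeFlag (limma adjusted p = 0.130). CDC25C was at 45.32 and 45.85 TPM in the libraries labelled oeRNH1, against 39.24 and 39.53 TPM in those labelled oeFlag (limma adjusted p = 0.0700). The CDC25A to CDC25B ratio was 3.45 and 3.37 in the libraries labelled oeRNH1, against 2.22 and 2.20 in those labelled oeFlag.

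**Figure D3:**
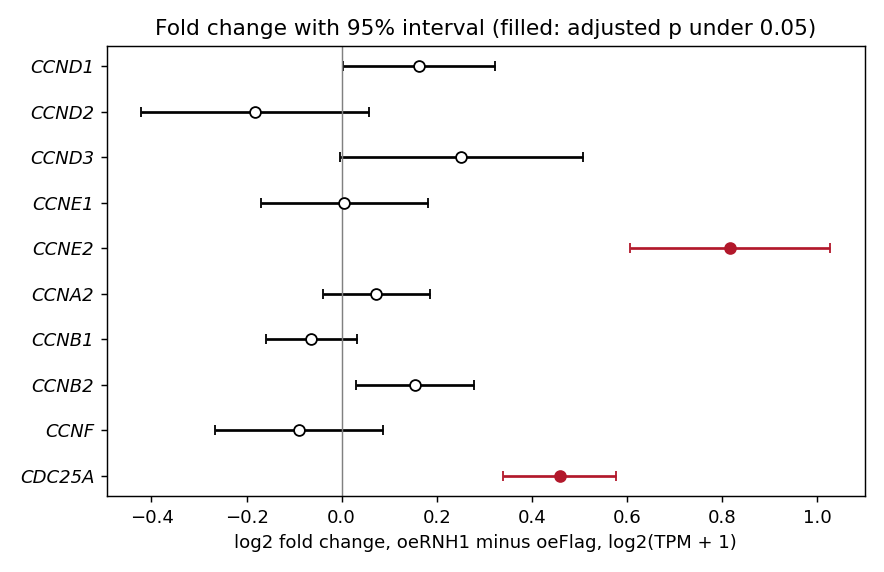
Log2 fold change of each gene on the log2(TPM + 1) scale, libraries labelled oeRNH1 minus oeFlag, with 95% intervals from limma; filled points passed an adjusted p of 0.05. The intervals of CCNE2 (0.61 to 1.03) and CDC25A (0.34 to 0.58) stand apart from those of CCNE1, CCNA2, CCNB1 and CCNF, which span 0. Those of CCND2 (-0.42 to 0.06) and CCND3 (-0.0038 to 0.51) also span 0, and the CCND3 interval overlaps that of CDC25A. CCND1 (0.0031 to 0.32) and CCNB2 (0.031 to 0.28) had intervals above 0, but neither passed the adjusted threshold.

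Both calls rest on all 4 libraries. Leaving out any one of them, oeRNH1 replicate 1 or 2 or oeFlag replicate 1 or 2, ended both calls. Each such fit leaves 1 library in a group and ended nearly all calls over all tested genes. The loss is thus not particular to CCNE2 and CDC25A. The fold changes moved little, from 0.72 to 0.92 for CCNE2 and from 0.43 to 0.48 for CDC25A. Testing without a filter on low values, or with variances that follow no intensity trend, also ended both calls without changing the fold changes. Over all tested genes those settings left 0 and 1 calls, in that order, in place of 1853.

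**Figure D4:**
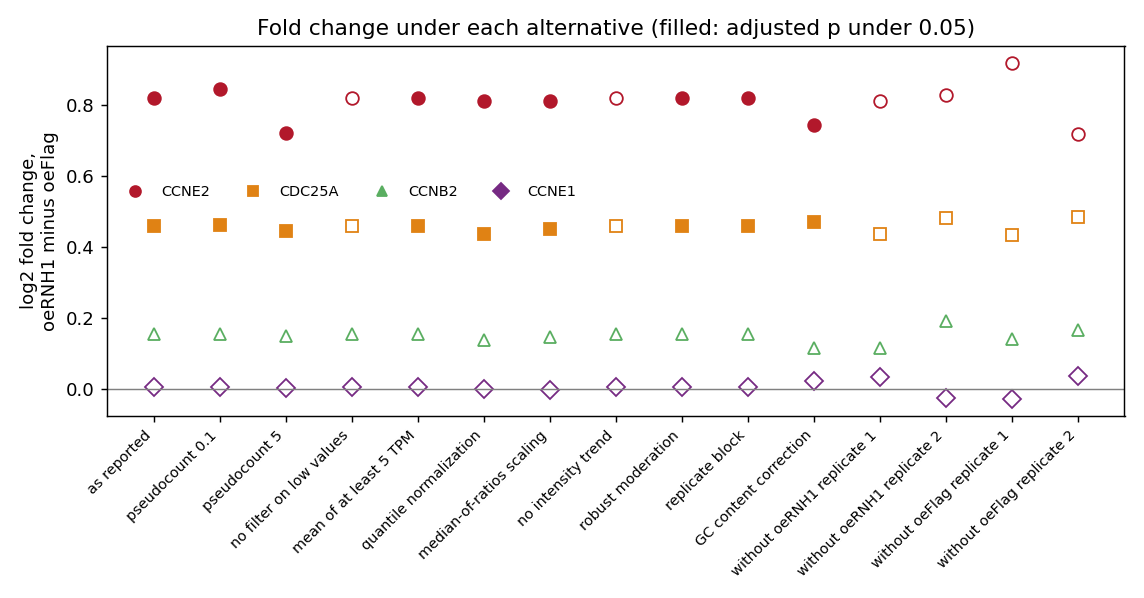
Log2 fold change of CCNE2, CDC25A, CCNB2 and CCNE1 as reported and under 14 alternatives (x axis), filled where the adjusted p was under 0.05. CCNE2 and CDC25A were called in 8 of the 14 alternatives and not in 6, with fold changes of 0.72 to 0.92 and 0.43 to 0.48, and CCNB2 and CCNE1 in none.

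By level, the order of the 10 genes in the libraries labelled oeRNH1 was CCNB1, CDC25A, CCNA2, CCNB2, CCND1, CCNE2, CCND3, CCNF, CCND2 and CCNE1. In those labelled oeFlag it was CCNB1, CCNA2, CCNB2, CDC25A, CCND1, CCNF, CCND2, CCND3, CCNE1 and CCNE2. CCNE2 was thus just below CCND1 in the libraries labelled oeRNH1 and at the bottom of the order in those labelled oeFlag. CDC25A was above CCNA2 and CCNB2 in the libraries labelled oeRNH1 and below both by mean in those labelled oeFlag. Neighbours whose values overlapped were CCNF with CCND2 and CCND2 with CCNE1 in the libraries labelled oeRNH1. In those labelled oeFlag they were CCNB2 with CDC25A, CCND2 with CCND3, and CCND3 with CCNE1. Among all tested genes 469 had a higher mean than CCNB1, 1265 a higher mean than CDC25A and 5265 a higher mean than CCNE2.

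The genes whose pattern lay nearest to that of CCNE2 were ANXA3, an annexin, HSPA2, a member of the heat shock protein family, and H2BC12, a histone H2B gene. Likeness was the root mean square distance of log2(TPM + 1) values, centred on each gene's mean, over the 4 libraries and 11244 candidate genes of at least 5 TPM. The distances were 0.0313 for ANXA3, 0.0353 for HSPA2 and 0.0396 for H2BC12. ANXA3 was at 11.64 and 12.1 TPM in the libraries labelled oeRNH1, against 6.74 and 5.59 TPM in those labelled oeFlag. Likeness over 4 libraries in 2 groups says little beyond a similar fold change.

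Around the cyclins, 10 lists of cell cycle and cyclin genes, chosen with earlier results of these data known, held 97 genes, of which 95 were tested. Of these 15 were called higher (15.8%) and 4 lower (4.21%), against 6.3% and 5.54% of all tested genes. Those 2 shares are the background for each list below, and a comparison with equally expressed genes was not tested. Over the 95 genes the log2 fold change had a median of 0.12, against 0.0035 over all tested genes. As for CCNE2 and CDC25A, none of these 19 calls held when a library was left out, without a filter or without an intensity trend. Of 7 CDKs and CDK-activating subunits 1 was called higher and 0 lower, leaving 6 not called, with a median of 0.05. The higher one was CDK1, the mitotic kinase, at 264.95 and 249.61 TPM in the libraries labelled oeRNH1, against 221.8 and 224.58 TPM in those labelled oeFlag (log2 fold change 0.20 ± 0.05, SE, limma adjusted p = 0.0421), a call lost after correction for GC content. CDK2, the partner of the E cyclins, had a log2 fold change of 0.18 ± 0.05 (SE, limma adjusted p = 0.0821), and CDK4 and CDK6, the partners of the D cyclins, -0.09 ± 0.05 and -0.28 ± 0.09 (limma adjusted p = 0.278 and 0.102). Of the 4 other genes of the CDC25 and WEE1 family, which set the inhibitory phosphorylation of CDKs, 1 was lower and 3 were not called. The lower one was PKMYT1, a kinase that inhibits CDK1, at 36.44 and 37.35 TPM in the libraries labelled oeRNH1, against 46.9 and 44.03 TPM in those labelled oeFlag (log2 fold change -0.29 ± 0.06, SE, limma adjusted p = 0.0399), also lost after GC correction.

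Among 8 CDK inhibitors, whose median was 0.23, calls went both ways (3 higher, 1 lower, 4 not called). CDKN1A (p21), which inhibits CDK2, rose to 51.07 and 53.29 TPM in the libraries labelled oeRNH1, against 33.98 and 35.37 TPM in those labelled oeFlag (log2 fold change 0.58 ± 0.06, SE, limma adjusted p = 0.00990). CDKN2D (p19) rose by 0.40 ± 0.08 and CDKN1B (p27) by 0.28 ± 0.07, and CDKN2A, the p16 and ARF gene, fell by 0.25 ± 0.06 (SE, limma adjusted p = 0.0376, 0.0473 and 0.0487). The CDKN1B call was lost under quantile normalization, median-of-ratios scaling and GC correction, and the CDKN2A call under GC correction. Transcripts of a CDK2 activator (CCNE2), an activating phosphatase (CDC25A) and a CDK2 inhibitor (CDKN1A) were thus all higher in the same libraries. In the RB family, RB1 rose by 0.32 ± 0.07 and RBL2 (p130) fell by 0.34 ± 0.06, and RBL1 was not called (SE, limma adjusted p = 0.0370, 0.0308 and 0.112). The RB1 call was lost after GC correction.

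Of the E2F and DP factors, the family that binds the E2F motif, 1 of 10 was higher, 1 lower and 8 not called, with a median of 0.16. E2F2, an activator, rose to 20.15 and 20.2 TPM in the libraries labelled oeRNH1, against 13.82 and 15.06 TPM in those labelled oeFlag (log2 fold change 0.46 ± 0.08, SE, limma adjusted p = 0.0279). E2F4, a factor of repressor complexes, fell by 0.26 ± 0.06 (SE, limma adjusted p = 0.0456), a call lost after GC correction, and E2F1 had a log2 fold change of 0.14 ± 0.07 (SE, limma adjusted p = 0.246). Of the 7 MuvB subunits and mitotic activators, which act on CHR promoters, none was called, with a median of 0.19. The most abundant of them were RBBP4, with a log2 fold change of 0.09 ± 0.04, and MYBL2, with 0.19 ± 0.06 (SE, limma adjusted p = 0.194 and 0.0739). After GC correction MYBL2 and FOXM1, a mitotic transcription factor, were called higher, with log2 fold changes of 0.27 and 0.28 (limma adjusted p = 0.0391 and 0.0436). FOXM1, at 0.25 ± 0.06 without that correction (SE, limma adjusted p = 0.0537), was also called with the replicate block (limma adjusted p = 0.0413).

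Of 31 genes of cyclin turnover (SCF and anaphase-promoting complex subunits, adaptors and cofactors) 2 were higher, 0 lower and 29 not called, with a median of 0.05. FBXO5 (EMI1), an inhibitor of the anaphase-promoting complex, rose to 80.03 and 74.1 TPM in the libraries labelled oeRNH1, against 56.97 and 57.68 TPM in those labelled oeFlag (log2 fold change 0.42 ± 0.06, SE, limma adjusted p = 0.0170). SKP1, the SCF adaptor, rose by 0.19 ± 0.04 (SE, limma adjusted p = 0.0336), a call lost after GC correction. FBXW7, which marks E cyclins for destruction, was not called (limma adjusted p = 0.214). Of 7 checkpoint genes that act upstream of CDC25A 2 were higher, 0 lower and 5 not called, with a median of 0.19. CLSPN (claspin), a mediator of CHEK1 activation, rose to 40.65 and 37.18 TPM in the libraries labelled oeRNH1, against 25.73 and 24.06 TPM in those labelled oeFlag (log2 fold change 0.62 ± 0.08, SE, limma adjusted p = 0.0128), and TOPBP1, an activator of ATR, rose by 0.37 ± 0.05 (SE, limma adjusted p = 0.0181). CHEK1, the kinase that targets CDC25A for destruction, was not called (limma adjusted p = 0.114).

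Cyclins that act in transcription rather than in the cell cycle had 4 of 7 higher, 0 lower and 3 not called, with a median of 0.27. CCNT1, the cyclin of the elongation factor P-TEFb, rose to 56.78 and 55.17 TPM in the libraries labelled oeRNH1, against 42.04 and 40.84 TPM in those labelled oeFlag (log2 fold change 0.42 ± 0.06, SE, limma adjusted p = 0.0156). CCNL1, a splicing-associated cyclin, rose by 0.33 ± 0.05, CCNT2 by 0.30 ± 0.06 and CCNC, of the Mediator kinase module, by 0.27 ± 0.05 (SE, limma adjusted p = 0.0174, 0.0341 and 0.0274). The CCNT2 call was lost after GC correction. Of the 13 other cyclins 11 were tested, of which 1 was higher, 0 lower and 10 not called, with a median of 0.21. CCNI, an abundant atypical cyclin, rose by 0.20 ± 0.05 (SE, limma adjusted p = 0.0488), also lost after GC correction. The germline cyclin CCNA1 was low, at 1.51 and 2.2 TPM in the libraries labelled oeRNH1, against 0.84 and 0.13 TPM in those labelled oeFlag, and was not called (limma adjusted p = 0.0896).

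**Figure D5:**
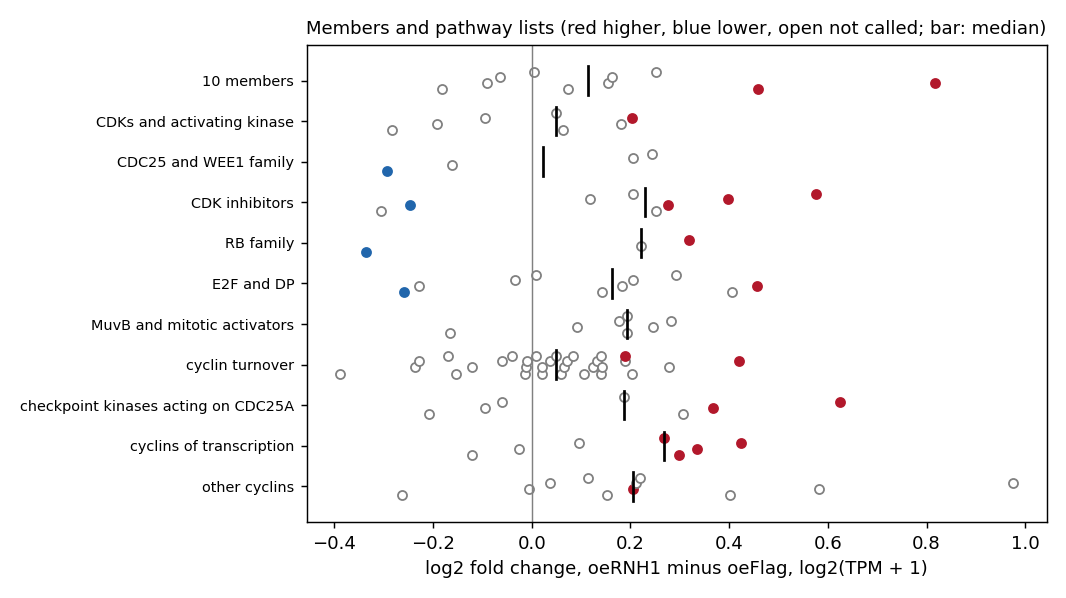
Log2 fold changes of the 10 genes and of the tested members of 10 related lists, libraries labelled oeRNH1 minus oeFlag on the log2(TPM + 1) scale, with calls in red (higher) and blue (lower) and bars at the medians. The transcription cyclins have the highest median among these lists (0.27). Of them 4 of 7 were called higher, against 6.3% of all tested genes.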

How the data were processed

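RNA was sequenced in 2 libraries labelled oeRNH1 and 2 labelled oeFlag. The authors deposited 1 table of TPM with a column per library; STAR and the hg38 build were used, per the submitters' processing notes, and the sources used here give no other step. Depth is not kept in TPM, so no counting interval was computed. Genes averaging 1 TPM or more over the 4 libraries were compared as log2(TPM + 1) with limma 3.58.1 in R 4.3.3 (group term, moderated variances with an intensity trend, two-sided, Benjamini-Hochberg over 15651 genes). The procedure was tested on simulated data. Gene positions and GC content came from GENCODE release 29 on GRCh38, which lacked 3087 of the table's genes. The members, lists and promoter motifs were chosen with earlier results of these data known. Named genes are all 10 members, the called genes of each list (up to 4, or the 2 most expressed where none was called), the 3 genes nearest to the most increased member, and RNASEH1. No member was called lower, so none was matched there. Others, such as partner kinases, genes called only under an alternative, sister phosphatases and overlapping genes, were chosen after their values were seen. Plots used matplotlib 3.10.9 under Python 3.11.15.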

Additional observations from a re-analysis of the deposited data

How the results depend on the processing

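Alternatives were pseudocounts of 0.1 and 5, no filter, no intensity trend, a minimum mean of 5 TPM, median-of-ratios scaling, quantile normalization, robust moderation, the replicate number as a block, GC content correction, and leaving out each library. With no filter 0 genes were called, 0 of them among the 10 genes and 0 higher and 0 lower in the related lists, against 5655 genes at an unadjusted p under 0.05. With no intensity trend 1 gene was called, higher, with 0 lower and 0 among the 10 genes and lists, against 4337 at an unadjusted p under 0.05. Leaving out a library left 0 to 15 calls over all genes, 0 to 10 higher and 0 to 5 lower, 0 among the 10 genes, and 0 higher and 0 lower in the lists, against 3367 to 4035 genes at an unadjusted p under 0.05. These fits leave 1 library in a group whose spread is taken to be that of the other group. A minimum of 5 TPM gave 24 higher calls in the lists, and GC correction 2 lower ones. Alternatives also gained calls there: GC correction CDKN2C, FOXM1, MYBL2, CDC20 and ATRIP (higher) and SKP2 (lower), the replicate block WEE1, FOXM1 and ANAPC10 (higher) and ANAPC15 (lower), the minimum of 5 TPM WEE1, CDKN2C, E2F7, E2F8, FOXM1, LIN54, ANAPC10, ATRIP and CCNYL1, quantile normalization E2F8 and ANAPC10, and median-of-ratios scaling and robust moderation ANAPC10 (all higher). The CCNE1 fold change, near 0, reversed with median-of-ratios scaling (-0.0031), and with a library left out it ranged from -0.0266 to 0.0370, below 0 without oeRNH1 replicate 2 and without oeFlag replicate 1. CCNE2 and CDC25A kept their direction in all 14 alternatives. The CCND1 to CCND2 difference on the log2 scale, 0.34, was 0.18 without oeRNH1 replicate 2. The same replicate number marks no stated pairing, and the deviations of same-numbered libraries correlated at 0.0307. With the replicate block, 2442 genes were called in place of 1853, with the same 2 calls (CCNE2, adjusted p = 0.00330, and CDC25A, adjusted p = 0.00478, limma) among the 10 genes.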
